A study of Mus musculus with 4 samples.

Results

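The cells described here were picked from droplet single-cell RNA sequencing of mouse lymph node cells by the transcripts of 4 genes, Lyz2, Ifitm3, Ms4a6c and Fn1, and made up 207 of 32725 filtered cells. A cell was kept when these genes together had at least 4 unique molecular identifiers (UMIs, each standing for 1 captured mRNA molecule). It also had to have 0 UMIs of 10 genes of other lineages, which were Cd3d, Cd3e and Cd3g (T cells), Cd79a (B cells), C1qa, C1qb and C1qc (complement-producing macrophages), Flt3 (conventional dendritic cells), Siglech (plasmacytoid dendritic cells) and Fscn1 (migratory dendritic cells). The 10 genes that led the gated cells over all other filtered cells were Ifitm3 (152-fold, with 5 CPM added to both levels), Lyz2, Il1b, Gda, Ifitm2, Tgfbi, Csf3r, Hp, Ccl6 and Slc8a1 (66.3-fold), of which the rule used the first pair. The working name of this gate was monocyte-like cells. The data went against that name for most members, so they are called Lyz2-gated cells below and only the clusters that carried the monocyte markers are called monocyte-like.

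The study treated wildtype C57BL/6 mice with extracellular vesicles (EVs, small membrane vesicles that cells release) from human induced pluripotent stem cells. The 2 EV libraries came from mice given 100 μg of these vesicles under the skin, and the 2 Control libraries came from mice that received none. The series' design text gives the harvest of the draining nodes as day 5, whereas the sample labels give 24 h and no treatment of the controls, and the study's methods name PBS for the controls. Age and sex are not given in the sources used here, and the study names 2 biological replicates a group without tying a replicate number to a litter or day.

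Monocytes are blood cells of the myeloid lineage that enter tissues and can become macrophages or dendritic cell-like cells. In the mouse, classical monocytes carry much Ly6C, use the chemokine receptor Ccr2 to leave the bone marrow and enter inflamed tissue and nodes, and patrolling monocytes carry little Ly6C, more of the fractalkine receptor Cx3cr1 and need the transcription factor Nr4a1. Lysozyme, the product of Lyz2, is made by monocytes, neutrophils and many macrophages, so that it marks the myeloid lineage rather than a member of it.

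Control libraries 1 and 2 held 50749656 and 58100433 UMIs, and EV libraries 1 and 2 held 68116085 and 70418672 UMIs. After the filters (200 to 5000 genes, at most 20000 UMIs and under 10% mitochondrial UMIs) 8141 and 7891 Control cells and 8164 and 8529 EV cells were left, with a median of 5502, 6561, 6639 and 6628 UMIs. The Lyz2-gated cells were shallower in every library, with a median of 1833 and 1326 UMIs in the Control libraries against 3823 and 2249 UMIs in the EV libraries. Their UMIs summed to 53524 and 117777 in the Control libraries and to 534829 and 258285 in the EV libraries. No cell barcode was shared between libraries among the gated cells.

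The gated cells fell into 5 clusters, and these formed 3 kinds of cells. Clusters of 30 and 29 cells, 59 cells together, had a median of 12530 UMIs and 3519 genes and carried all 15 monocyte markers. Their leading genes over all other filtered cells were Ifitm3, an antiviral membrane protein, Lyz2 and Tgfbi, an extracellular matrix protein of monocytes and macrophages. A further cluster of 26 cells carried 8 of 12 neutrophil markers and was led by S100a9 and S100a8, the calgranulins that neutrophils store in bulk, and by Retnlg. The remaining 122 cells, in clusters of 80 and 42 cells, had a median of 1272 UMIs and 575.5 genes. This was 0.193 times the median of the filtered cells of their libraries, and they were led by Lyz1, Lyz2 and Mt1, so they are called shallow Lyz1 clusters and were given no cell type name. The 3 kinds are called monocyte-like, neutrophil-like and shallow Lyz1 clusters in the following.

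Markers that the gate had not used were also counted cell by cell. They belong to the list by which the clusters were named, so the count describes these kinds and gives no separate support. Of 11 further monocyte markers (Ly6c2, Ccr2, Plac8, Ms4a4c, F13a1, Vcan, Chil3, Csf1r, Ccl9, Hp and Ifi204), the monocyte-like cells had a median of 9, the neutrophil-like cells a median of 2 and the shallow Lyz1 cells a median of 0. At least 3 of them were found in 52 of the 59 monocyte-like cells, in 9 of the 26 neutrophil-like cells and in 1 of the 122 shallow Lyz1 cells. Depth moved with this count, and its part in it was not tested. Lyz2 alone was the most abundant gate gene in 178 of the 207 cells, Ifitm3 in 26, Ms4a6c in 3 and Fn1 in 0.

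**Figure D1:**
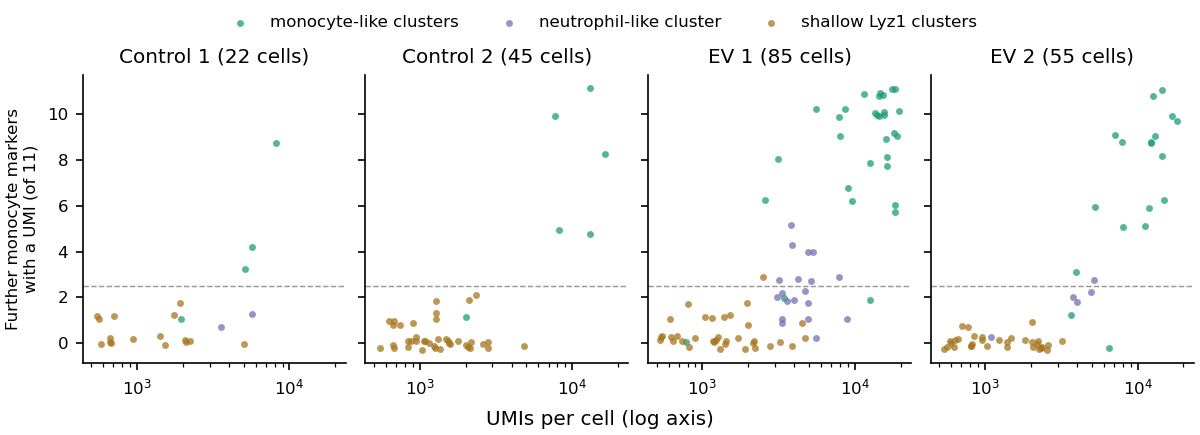
UMIs per cell (log axis) against the number of 11 further monocyte markers with a UMI, 1 point per Lyz2-gated cell and 1 panel per library, with the points jittered vertically and a dashed line below 3 markers. Cells with many markers are deep and are few in the Control panels, while the shallow Lyz1 cells, with a median of 0 markers, lie at the lower left in all 4 panels.

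Lyz1 and Lyz2 are neighbouring lysozyme genes, and the first was, with Pla2g2d, among the leading genes of the shallow cells against the other gated cells. In the annotation of mm10, Lyz1 covers bases 117287797 to 117292868 and Lyz2 bases 117277331 to 117282321 of chromosome 10, both on the minus strand. Lyz2 reached 13519 CPM (UMIs of the gene over all UMIs of the summed cells, on the usual CPM scale) in the monocyte-like cells and 13690 CPM in the summed shallow Lyz1 cells. The gate used Lyz2, so its high level in both kinds follows from the rule and is given without weight. Lyz1 had 499 UMIs (2730 CPM) in the shallow Lyz1 cells, spread over 65 of 122 cells, with 30 and 202 UMIs in the Control libraries against 143 and 124 UMIs in the EV libraries. In the monocyte-like cells its 23 UMIs all came from 1 cell of EV library 2. The genes are paralogs, but only 44 of the 1227 windows of 90 bases in the Lyz2 transcript (3.59%) also occur in the Lyz1 transcript. They lie between 169 and 872 bases from the 3′ end of that transcript, which is 1316 bases long, and how many reads fell in them was not tested.

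Lyz1 was detected almost only in the shallow cells. Lyz2 was detected in both kinds of cells, but the gate used it, so this followed from the rule. The 200 bases before the annotated starts of both genes are shown. They are given 5′ to 3′ on the minus strand from RefSeq's promoter table (build GRCm38.p6), for Lyz1 at chr10:117292869-117293068 and for Lyz2 at chr10:117282322-117282521, with the longest run of bases that both windows hold in capitals.
Lyz1: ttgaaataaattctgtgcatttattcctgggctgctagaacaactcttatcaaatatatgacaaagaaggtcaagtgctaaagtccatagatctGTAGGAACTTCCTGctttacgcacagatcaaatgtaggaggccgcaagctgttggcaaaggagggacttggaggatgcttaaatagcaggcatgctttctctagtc
Lyz2: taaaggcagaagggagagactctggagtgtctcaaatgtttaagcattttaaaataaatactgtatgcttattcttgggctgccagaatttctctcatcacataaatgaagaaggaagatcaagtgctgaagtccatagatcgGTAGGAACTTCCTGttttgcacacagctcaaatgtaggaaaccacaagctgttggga
The windows were identical at 82% of 150 locally aligned positions. The shared run is 14 bases long and holds GGAA, the core letters that ETS family factors such as PU.1 recognise, on each strand. GGAA on either strand was found in 89.0% of 32851 promoter windows of 200 bases, and the whole run on either strand in 2, those of Lyz1 and Lyz2.

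Several transcripts were high in the shallow Lyz1 cells and in macrophages and low in the monocyte-like cells. Pla2g2d, a secreted phospholipase, had 125 UMIs in 62 of the 122 shallow cells (684 CPM) and 0 UMIs in the monocyte-like cells, and reached 991 CPM in 136 macrophages gated on C1q transcripts. Timd4, a receptor for the dying-cell signal phosphatidylserine, was at 235 CPM in the shallow cells, at 1 UMI in the monocyte-like cells and at 756 CPM in the C1q macrophages. Cd63, a tetraspanin of lysosomes and vesicles, was at 848, 21.0 and 1407 CPM in the same order. Prg3 had 104 UMIs in the shallow cells (569 CPM), 2 UMIs in the monocyte-like cells and 56 UMIs in the C1q macrophages (258 CPM). Apoe, a lipid carrier of macrophages, was at 4503, 709 and 17981 CPM. Of the 15 listed macrophage markers, however, the shallow cells carried only 3 (Timd4, Vcam1 and Lyz1). They had 0 UMIs of C1qa, C1qb and C1qc by the rule, and also 0 UMIs of the macrophage markers Mrc1, Cd163 and Cd5l. Of the 15 monocyte markers they carried 4 (Lyz2, Ifitm3, Ms4a6c and Csf1r, the last in 14 of 122 cells), and Ly6c2, Vcan and Chil3 had 0 UMIs in them. Given 182763 UMIs in all shallow cells, a gene at 0 UMIs was not detected, but a low level of it remains possible.

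**Figure D2:**
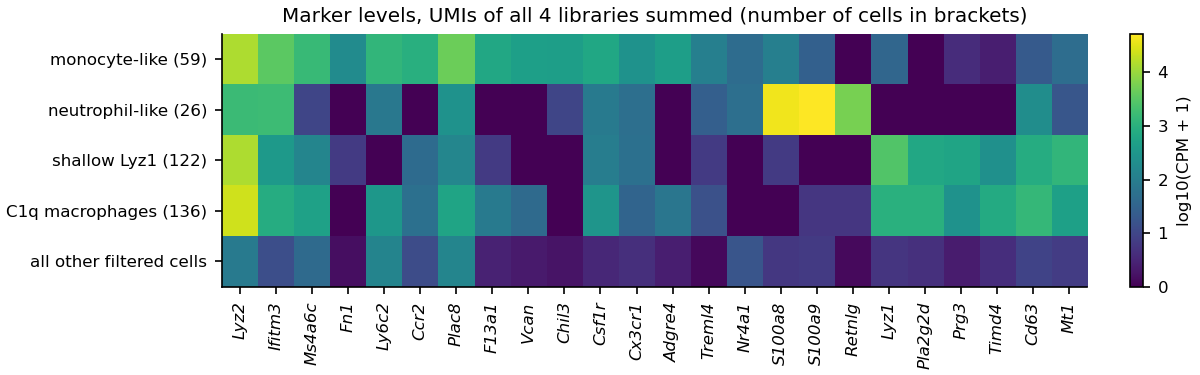
Level of 24 genes, as log10 of CPM plus 1, in the summed UMIs of the monocyte-like, neutrophil-like and shallow Lyz1 clusters, of the C1q macrophages and of all other filtered cells. Lyz2, which the gate used, is at 13519 CPM in the monocyte-like cells and 13690 CPM in the shallow cells. Lyz1, Pla2g2d, Prg3, Timd4 and Cd63 are higher in the shallow cells than in the monocyte-like cells. Pla2g2d, Timd4 and Cd63 are highest in the C1q macrophages, and S100a8 and S100a9 are highest in the neutrophil-like cells.

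The neutrophil-like cluster was the most sharply marked. S100a9 reached 52397 CPM and S100a8 41038 CPM in it, and all 26 cells had a UMI of both. Csf3r, the receptor for the growth factor G-CSF, and the chemokine receptor Cxcr2 were at 3738 and 1908 CPM. Of the 15 monocyte markers it carried 6 (Lyz2, Ifitm3, Plac8, Csf1r, Hp and Ifi204), while Fn1, Ccr2, Ms4a4c, F13a1 and Vcan had 0 UMIs there. Control libraries 1 and 2 contributed 2 and 0 of these cells and EV libraries 1 and 2 contributed 19 and 5. The 0 of 7891 cells in Control library 2 allows a share of up to 0.0380% by a limit of 3 counts and 0.0487% by the Wilson interval, against 0.233% and 0.0586% measured in EV. Control library 1 was at 0.0246% (Wilson interval 0.00674% to 0.0895%), which overlapped the interval of EV library 2 (0.0250% to 0.137%). Many of these cells passed the gate through Ifitm3, and with Lyz2 alone required to reach 4 UMIs the cluster would hold 1 and 0 Control cells and 7 and 4 EV cells. Traces of S100a8 were also found outside the gate, with a UMI in 0.0224% and 0.0217% of the Control T cells and in 0.844% and 0.413% of the EV T cells, a cell type that should lack the gene (median 6446, 7534, 8756 and 8078.5 UMIs). Such T cells were more frequent in the EV libraries, and the part of free RNA in the other counts was not tested.

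The question of the study was how the vesicles changed the cells of the node, and the first comparison is the number of cells. The Lyz2-gated cells were 0.270% and 0.570% of the filtered cells in the Control libraries (22 and 45 cells, 95% Wilson intervals 0.179% to 0.409% and 0.426% to 0.762%). In the EV libraries they were 1.04% and 0.645% (85 and 55 cells, intervals 0.843% to 1.29% and 0.496% to 0.838%). Neither EV library fell within the range of the Control libraries, at 0.843% ± 0.280 against 0.420% ± 0.212 (SD, n = 2 each, exact two-sided permutation p = 0.33). This is the smallest p that the permutation test allows with 2 against 2 libraries, so no share can reach 0.05 by it. Control library 2 and EV library 2 were close, and their intervals overlapped. The difference of the means, 0.423 percentage points, was 0.225 without EV library 1 and 0.273 without Control library 1. These intervals cover counting error only.

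The excess in the EV libraries lay mostly in the deeper cells. Cells with at least 3 of the 11 further monocyte markers numbered 3 and 5 in the Control libraries (0.0369% and 0.0634%) against 37 and 17 in the EV libraries (0.453% and 0.199%), a 6.51-fold higher mean share (exact permutation p = 0.33). Without EV library 1 the ratio was 3.98, and without EV library 2, Control library 1 or Control library 2 it was 9.04, 5.15 or 8.85, alternatives chosen after seeing the data. The monocyte-like clusters, given as values because the clusters were made from the same cells, held 4 and 6 Control cells and 31 and 18 EV cells. The shallow Lyz1 clusters held 16 and 39 Control cells and 35 and 32 EV cells. They made up 0.197% and 0.494% of the filtered Control cells and 0.429% and 0.375% of the filtered EV cells, so that the groups overlapped. Among the gated cells, the monocyte-like share was 18.2% and 13.3% in the Control libraries against 36.5% and 32.7% in the EV libraries. When every cell was thinned to 1000 UMIs, cells with at least 3 further markers were 0.0124% and 0.0644% of the Control cells and 0.434% and 0.261% of the EV cells. Fewer lymphocytes in a library raise such a share in the same way as more gated cells. Of the cells without Cd3 and Cd79a UMIs, the Lyz2-gated cells were 9.40% and 11.2% in the Control libraries against 22.8% and 18.0% in the EV libraries.

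**Figure D3:**
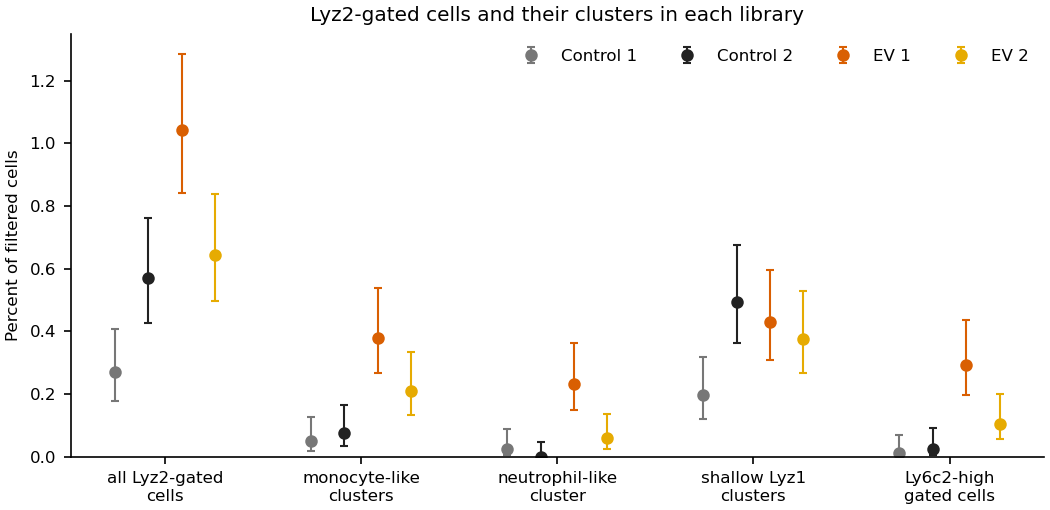
Percent of filtered cells in each library (points) with 95% Wilson intervals (bars) for all Lyz2-gated cells, the 3 kinds of clusters and the Ly6c2-high gated cells. The shares of monocyte-like cells (0.0491% and 0.0760% in Control, 0.380% and 0.211% in EV) are apart, whereas those of the shallow Lyz1 clusters overlap.

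Ly6c2, which encodes the Ly6C protein of classical monocytes, divided the gated cells unevenly. Cells with at least 3 Ly6c2 UMIs, called Ly6c2-high, numbered 1 and 2 in the Control libraries against 24 and 9 in the EV libraries. They were 4.55% and 4.44% of the gated Control cells and 28.2% and 16.4% of the gated EV cells (exact permutation p = 0.33), without overlap, and the difference of 17.8 percentage points was 11.9 without EV library 1. With every cell thinned to 1000 UMIs the Ly6c2-high share was 0% and 2.86% of the gated Control cells and 10.3% and 10.0% of the gated EV cells, a difference of 8.70 points. Thinning at a fixed limit of 3 UMIs lowers every such share. Over all libraries 162 cells had 0 UMIs, 7 had 1, 2 had 2, 1 had 3 and 5 had 4 UMIs, and 30 had more. In EV library 2, however, 1 Ly6c2-high cell had 3 UMIs and 3 had 4, and the only one of Control library 1 had 4. Cells with more than 4 UMIs were 0 of 22 and 2 of 45 gated Control cells and 23 of 85 and 5 of 55 gated EV cells. The shallow Lyz1 cells had 0 Ly6c2 UMIs throughout and so filled most of the low class. Within the monocyte-like clusters the Ly6c2-high cells were 1 of 4 and 2 of 6 in the Control libraries and 23 of 31 and 9 of 18 in the EV libraries, without overlap at this limit (exact permutation p = 0.33). The Wilson intervals of these shares, 4.56% to 69.9% and 9.68% to 70.0% for Control and 56.8% to 86.3% and 29.0% to 71.0% for EV, overlapped widely. With more than 4 UMIs required, 2 of 6 cells of Control library 2 and 5 of 18 of EV library 2 were left, so the groups overlapped. Ly6c1, the near-identical neighbour of Ly6c2, had 1 UMI in all gated cells against 875 of Ly6c2. In T cells, 19.5% to 24.7% of cells had a Ly6c2 UMI, so outside the gate the gene does not mark monocytes alone. Within the gate, 5 of the 26 neutrophil-like cells also had a Ly6c2 UMI, with up to 5 UMIs in a cell.

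The 59 monocyte-like cells were not all alike. The cluster of 30 cells was led, against the other gated cells, by class II genes such as H2-Ab1 and H2-Eb1 and by Ffar2, and carried 7 of 13 conventional dendritic cell markers beside the 15 monocyte markers, with Flt3 at 0 by the rule. The cluster of 29 cells was led by F13a1, Fn1 and Chil3. Of the 10 Control cells, 2 with 1931 and 2026 UMIs had 1 further monocyte marker each. Another, from Control library 1, carried 47 UMIs of mast cell and basophil markers beside 33 of monocyte markers and 0 of patrolling monocyte markers. This cell and 3 others make up all monocyte-like cells of Control library 1, so values of that library are weak. Poorly marked cells were also found in EV, where cells with 775, 6452, 3649, 3451 and 12530 UMIs had 0, 0, 1, 2 and 2 further monocyte markers. The monocyte-like cells had a median of 5400 and 10691.5 UMIs in the Control libraries against 14379 and 12016.5 UMIs in the EV libraries, so that depth differed between the groups as well.

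For the comparison of expression, the UMIs of each kind of cell were summed in each library, the EV sums were compared with the Control sums by edgeR's quasi-likelihood test, and genes were called at a Benjamini-Hochberg adjusted p under 0.05. In the monocyte-like clusters 0 of 2707 genes were called by edgeR (0%) and 0 by DESeq2, with 228 genes at an unadjusted edgeR p under 0.05. The genes below are therefore given as values. The expression filter keeps a gene that is high in a single group, and the direction of such a gene is partly set by the filter. Counts over lists of genes can hold such members. Whether groups overlapped was judged on levels scaled by edgeR's TMM factors, and printed CPM are without them.

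Patrolling monocyte genes were the group that stood lowest in the EV monocyte-like cells. Of the 10 patrolling markers 8 were tested, and all 8 were lower in both EV libraries than in both Control libraries, against 18.2% of all genes tested. Their median log2 fold change was -1.90, against 0.06 over all genes, and 0 of them were called. Cx3cr1, the receptor for fractalkine, had 24 and 38 UMIs in Control (1148 and 626 CPM) and 60 and 44 UMIs in EV (154 and 227 CPM), with a fitted log2 change of -2.08 ± 0.43 (SE) and an edgeR adjusted p of 0.21. Over the alternative settings, each library left out in turn included, it lay between -2.34 and -1.71. In Control library 1 a single cell held 20 of its 24 UMIs, and in Control library 2 a single cell held 19 of 38. Nr4a1, the transcription factor that patrolling monocytes depend on, was at 239 and 148 CPM in Control versus 28.2 and 25.7 CPM in EV. It was detected in 2 of 4 and 4 of 6 Control cells and in 7 of 31 and 5 of 18 EV cells. No cell held more than 4 of its UMIs, so these levels rest on few counts. Nr4a1 passed the expression filter only through the Control libraries. Eno3, another of the 8, had at most 1 UMI in any cell of EV library 2 and needed the Control libraries to pass. The tally of 8 was therefore partly set by the filter. Ace, the angiotensin-converting enzyme, was at 431 and 280 CPM against 89.9 and 103 CPM. Treml4 was at 287 and 231 CPM against 82.2 and 103 CPM. Markers of these cells were also found in EV cells, since at least 3 of the 10 had a UMI in 2 of 4 and 5 of 6 Control cells and in 18 of 31 and 12 of 18 EV cells.

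Pou2f2, Tmem26 and Hspa8 came closest to the threshold in these clusters. Pou2f2, a POU-domain transcription factor, was at 1005 and 906 CPM in Control versus 128 and 191 CPM in EV (log2 fold change -2.52 ± 0.39, edgeR adjusted p = 0.060). Tmem26 had 3 and 11 UMIs in the 10 Control cells and 4 and 1 UMIs in the 49 EV cells (log2 fold change -4.14 ± 0.64, edgeR adjusted p = 0.060), but it was detected in 2 of 4 and 1 of 6 Control cells, and 1 cell held all 11 UMIs of Control library 2. Hspa8, the constitutive heat shock cognate protein, was higher in EV, at 3712 and 4130 CPM against 909 and 1318 CPM (log2 fold change 1.84 ± 0.27, edgeR adjusted p = 0.060). The groups did not overlap for any of the 3. Ear2, a ribonuclease of the eosinophil-associated family, was at 431 and 429 CPM in Control versus 61.6 and 72.1 CPM in EV, and Runx2, a transcription factor, was at 431 and 527 against 71.9 and 118 CPM (edgeR adjusted p = 0.10 and 0.21). In Control library 1 a single cell held all 9 UMIs of Ear2, and 1 cell held 16 of the 21 UMIs of Pou2f2. Tmem26 and Ear2 passed the expression filter only through the Control libraries, so their direction was partly set by the filter.

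The classical monocyte markers overlapped more. Of the 15 monocyte markers, 9 were higher in both EV libraries and 0 lower, against 22.2% of all genes tested that were higher, with 0 called and a median log2 fold change of 0.71. The list includes the gate genes and the genes that define the clusters. Members such as Fn1 and Vcan passed the expression filter only through the EV libraries. Ly6c2 itself was at 191 and 1549 CPM in Control versus 1574 and 798 CPM in EV, so the groups overlapped and the log2 fold change was 0.33 ± 0.61 (edgeR adjusted p = 0.96). F13a1, a subunit of coagulation factor XIII, was at 95.7 and 560 CPM in Control against 547 and 1051 CPM, and Ccr2 at 287 and 1137 CPM against 691 and 1427 CPM. Vcan, a matrix proteoglycan, had 0 and 2 UMIs in Control and 281 and 18 UMIs in EV, found in 0 of 4 and 2 of 6 Control cells and in 20 of 31 and 3 of 18 EV cells, so that EV library 1 held most of it. Chil3, a chitinase-like protein, was at 287 and 132 CPM in Control versus 552 and 330 CPM in EV.

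**Figure D4:**
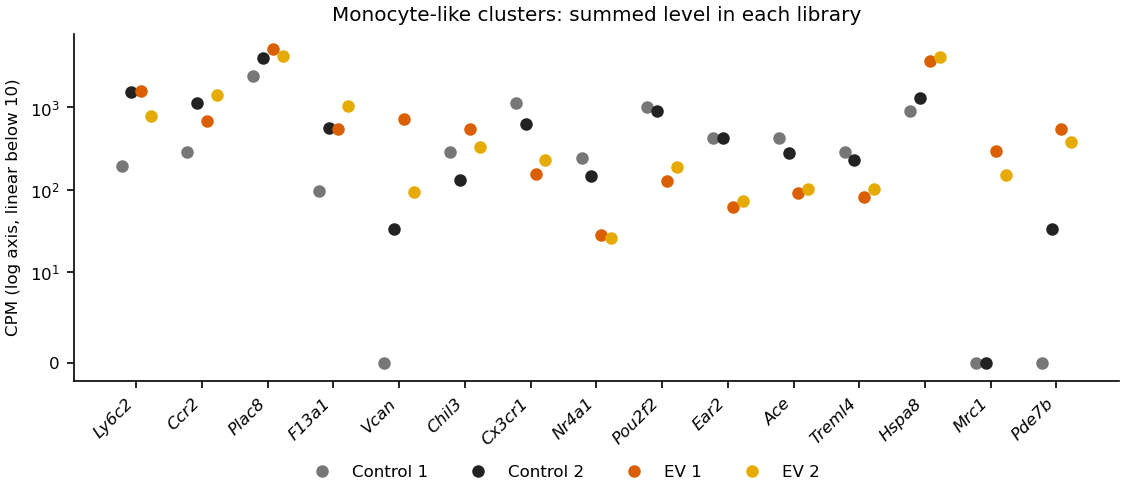
CPM of 15 genes in the summed monocyte-like cells of each library (4, 6, 31 and 18 cells), on a log axis that is linear below 10. Cx3cr1, Nr4a1, Pou2f2, Ear2, Ace and Treml4 are lower in both EV libraries and Hspa8, Mrc1 and Pde7b higher, with no gene past the threshold, while the groups overlap for Ly6c2 and Ccr2.

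Interferon-stimulated antiviral genes were not called in the monocyte-like clusters. Of 53 listed genes 37 were tested, and 17 were higher in both EV libraries and 0 lower, against 22.2% and 18.2% of all genes tested, with 0 called and a median log2 fold change of 0.75. EV library 1 stood above EV library 2 in Isg15, Irf7 and Ifi27l2a, and not in Ly6e, a membrane protein induced by interferon. Isg15, a ubiquitin-like protein of the antiviral response, was at 0 and 412 CPM in Control versus 875 and 227 CPM in EV. Irf7, the transcription factor behind much of the type I interferon response, was at 47.9 and 198 CPM in Control versus 650 and 180 CPM in EV. Ifi27l2a was at 1723 and 2901 CPM against 3284 and 1782 CPM, and Ly6e at 1101 and 1417 CPM against 1838 and 1885 CPM. The summed levels overlapped for Isg15, Irf7 and Ifi27l2a, but few Control cells lay behind those of Isg15 and Irf7. Ifi27l2a was detected in 2 of 4 and 6 of 6 Control cells and in 27 of 31 and 14 of 18 EV cells. Isg15 was detected in 0 of 4 and 1 of 6 Control cells, that cell holding all 25 UMIs, and in 26 of 31 and 13 of 18 EV cells. Irf7 was detected in 1 of 4 and 1 of 6 Control cells, the second holding all 12 UMIs of its library, and in 25 of 31 and 11 of 18 EV cells. The EV cells were deeper, and the part of depth in these tallies was not tested.

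Other groups of genes in the monocyte-like clusters gave no called member either, and their counts are to be read against the 22.2% of all genes tested that were higher and the 18.2% that were lower in both EV libraries. Of 19 heat shock and chaperone genes tested, 12 were higher in both EV libraries and 0 lower (median log2 fold change 0.61), with Hspa8 the most abundant, and Hsp90ab1 had a log2 fold change of 1.05 ± 0.31 (edgeR adjusted p = 0.37). Of 11 mitochondrially encoded genes, 8 were higher and 0 lower (median 0.73). Of these mt-Co3 had a log2 fold change of 0.95 (edgeR adjusted p = 0.23), and mt-Cytb was at 1196 and 1253 CPM in Control versus 2459 and 2812 CPM in EV. Of 10 class II presentation genes, 3 were higher and 0 lower (median 0.57), a share near that of all genes. Fth1 had a log2 fold change of 1.12 (edgeR adjusted p = 0.23). Ribosomal protein genes showed little shift, with 13 of 82 higher and 20 lower (median -0.03). Mrc1, the mannose receptor, had 0 and 0 UMIs in Control and 115 and 29 UMIs in EV, but 5 EV cells held all of them and 1 cell held 64. Pde7b, a phosphodiesterase of cyclic AMP, had 0 and 2 UMIs in Control and 214 and 74 UMIs in EV, found in 1 of 10 Control cells and in 36 of 49 EV cells (log2 fold change 4.29 ± 0.75, edgeR adjusted p = 0.10). Both Mrc1 and Pde7b passed the expression filter only through the EV libraries. Il1b, the cytokine interleukin-1 beta, rested on 1 library, with 11 and 8 UMIs in Control and 628 and 11 UMIs in EV.

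In the shallow Lyz1 clusters 5 of 658 genes were called by edgeR (0.76%), 2 higher and 3 lower in EV, and 0 were called by DESeq2, with 73 genes at an unadjusted edgeR p under 0.05 and 19 by DESeq2. Fth1, the heavy chain of the iron store ferritin, rose from 22466 and 22539 CPM in Control to 45602 and 42014 CPM in EV (log2 fold change 0.91 ± 0.12, edgeR adjusted p = 0.0042). Gpx1, a peroxide-reducing enzyme, rose from 49 and 104 UMIs to 213 and 174 UMIs, a log2 fold change of 0.92 ± 0.18 (edgeR adjusted p = 0.046). Il22ra2, which encodes the soluble binding protein of interleukin-22, fell from 15 and 47 UMIs to 6 and 6 UMIs, a log2 fold change of -2.69 ± 0.40 (edgeR adjusted p = 0.0096). It was detected in 6 and 9 Control cells and in 5 and 6 EV cells, and 1 Control cell held 16 of the UMIs. The groups overlapped for none of the 3. Il22ra2 passed the expression filter only through the Control libraries, so its direction was partly set by the filter. Hist1h2bc, a histone gene, had 1 and 3 UMIs in Control and 29 and 13 in EV (log2 fold change 2.92, edgeR adjusted p = 0.057). This gene passed the expression filter only through the EV libraries. Cdkn1a, the cell cycle inhibitor p21, and Eif5a, a translation factor, were also higher in both EV libraries (2.72 and 1.25, edgeR adjusted p = 0.12 and 0.15). Without Control library 1 or without Control library 2 the number of called genes was 0, without EV library 1 it was 16 and without EV library 2 it was 17.

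The class II genes H2-Aa and Cd74 fell in the shallow Lyz1 clusters. H2-Aa, a class II chain, went from 62 and 166 UMIs to 68 and 40 UMIs (log2 fold change -1.46 ± 0.23, edgeR adjusted p = 0.010) and Cd74, the invariant chain, from 114 and 266 UMIs to 153 and 103 UMIs (-0.98 ± 0.18, edgeR adjusted p = 0.025). Of 6 class II presentation genes tested, 5 were lower in both EV libraries and 0 higher, against 21.4% of all genes tested that were lower, with 2 called. In the C1q macrophages H2-Aa was at 2753 and 2896 CPM in Control versus 4517 and 2240 CPM in EV, so that the groups overlapped. H2-Eb1, another class II chain, had 48 and 120 UMIs in Control and 62 and 38 in EV (-1.15, edgeR adjusted p = 0.057). Class II genes are abundant in B cells, which numbered 2843 and 2370 in Control and 4616 and 4129 in EV. The list of B cell markers had 4 and 10 UMIs in the shallow Control cells and 4 and 8 in the shallow EV cells, and the part of B cell RNA in the class II values was not tested.

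Glycolysis genes had higher values in EV in the shallow cells. All 8 tested of 19 listed were higher in both EV libraries, against 22% of all genes tested, with a median log2 fold change of 0.94 and 0 called. Gapdh, the most abundant, had 40 and 81 UMIs in Control and 143 and 102 UMIs in EV, and Pgam1 had 3 and 3 against 16 and 19. Pgam1 passed the expression filter only through the EV libraries, so the tally of 8 was partly set by the filter. Of 6 abundant nuclear or rRNA-like transcripts tested, 6 were lower in both EV libraries, against 21.4% of all genes tested, with a median log2 fold change of -1.71 and 0 called. Gm42418, which overlaps ribosomal RNA sequence, was at 22936 and 20385 CPM in Control versus 10138 and 2706 CPM in EV, and EV library 2 lay below EV library 1. In all other filtered cells of the 4 libraries its UMIs were 426788, 550114, 341527 and 51996, so the difference was not limited to the gated cells. Of 81 ribosomal protein genes 48 were lower and 3 higher in both EV libraries, against 21.4% and 22% of all genes tested (median -0.22, 0 called). Cdk8, a kinase of the Mediator complex that the study names, had 24 and 26 UMIs in Control and 13 and 0 UMIs in EV (edgeR adjusted p = 0.21) in the shallow clusters, and its lowest value was likewise in EV library 2.

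**Figure D5:**
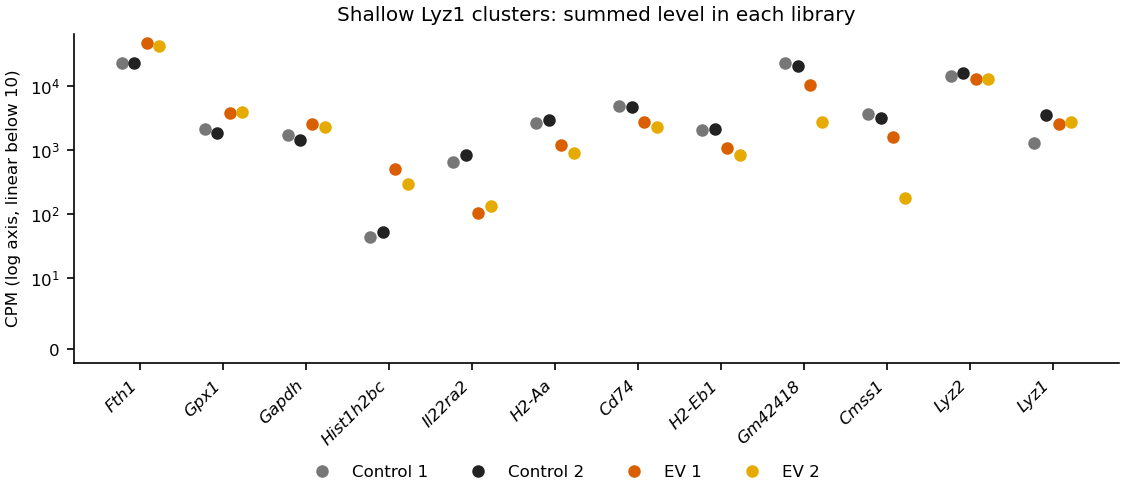
CPM of 12 genes in the summed shallow Lyz1 cells of each library (16, 39, 35 and 32 cells), on a log axis that is linear below 10. Fth1 and Gpx1 are higher and Il22ra2, H2-Aa and Cd74 lower in both EV libraries, all 5 past the threshold, and Gm42418 and Cmss1 are lowest in EV library 2.

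Summed over all 207 gated cells, the comparison mixes these kinds of cells in different proportions. edgeR called 0 of 3493 genes (0%) and DESeq2 25, and 410 genes had an unadjusted edgeR p under 0.05. Il22ra2, with 74 of its 76 UMIs in the shallow cells, had 17 and 47 UMIs in Control and 6 and 6 UMIs in EV (log2 fold change -4.62 ± 0.51, edgeR adjusted p = 0.051). Here too it passed the expression filter only through the Control libraries. Prg3, Chchd10, a mitochondrial protein, and Timd4 were lower as well (log2 fold changes -2.50, -2.47 and -2.85, with edgeR adjusted p = 0.14, 0.14 and 0.19), and all 3 had most of their UMIs in the shallow clusters. Rps29 and Rpl39, 2 ribosomal proteins, were lower by a log2 of -1.48 and -1.28 (edgeR adjusted p = 0.14 each). Of 85 ribosomal protein genes, 79 were lower and 1 higher in both EV libraries (median -0.75), against 20.8% and 22.7% of all genes tested, whereas within the monocyte-like clusters the median was -0.03. Pde7b, Mrc1, Atrnl1, Hspa8 and Trim25 had the smallest p among the genes higher in EV, all with edgeR adjusted p of 0.14 to 0.22. The log2 fold changes of Pde7b, Atrnl1, Hspa8 and Trim25 were 4.99, 1.81, 1.37 and 3.21. Mrc1 had 0 UMIs in the gated Control cells, so no fold change is given for it. Pde7b was found in 1 gated Control cell, with 2 UMIs, so its value rests on few Control counts. Interferon-stimulated genes were higher in both EV libraries in 24 of 41 tested and lower in 0, with a median log2 fold change of 1.23. Cdk8 was lower (-2.39 ± 0.62, edgeR adjusted p = 0.25) and Cdk19, its paralog, overlapped between the groups (0.10 ± 0.58, edgeR adjusted p = 0.98). Of the gate genes, which the rule used, Lyz2 had a log2 fold change of -0.07, Ifitm3 1.01, Ms4a6c 1.05 and Fn1 2.45, given without weight.

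Among the Ly6c2-low gated cells, 21 and 43 in Control and 61 and 46 in EV, edgeR called 0 of 2003 genes (0%) and DESeq2 4, with 195 at an unadjusted edgeR p under 0.05. This class held shallow Lyz1, neutrophil-like and monocyte-like cells. Il22ra2 again had the smallest p (log2 fold change -3.77, edgeR adjusted p = 0.40), and again passed the expression filter only through the Control libraries. Pou2f2 had 16 and 47 UMIs in Control and 22 and 12 UMIs in EV (-2.32, edgeR adjusted p = 0.43). The Ly6c2-high cells were too few for a fit, since 1 and 2 Control cells were found.

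Whether EV and Control differed in the gated cells as they did in other myeloid cells was tested as an interaction, with the library as a block. Against the C1q macrophages (25 and 35 Control and 45 and 31 EV cells), 5 of 1805 genes were called (0.277%). Fth1 had 282 and 509 UMIs in the Control macrophages and 1992 and 988 UMIs in the EV macrophages, and 583 and 1411 against 5177 and 2660 UMIs in the gated cells. Its level was 10782 and 11701 CPM in Control versus 20686 and 19412 CPM in EV in the macrophages, beside 10892 and 11980 against 9680 and 10299 CPM in all gated cells (difference -1.06 ± 0.23 on the log2 scale, edgeR adjusted p = 0.015). Psap, a precursor of lysosomal activators, was at 822 and 1537 CPM in Control versus 1715 and 2513 CPM in EV in the gated cells, and at 2982 and 3586 against 1817 and 2535 CPM in the macrophages (difference 1.44 ± 0.34, edgeR adjusted p = 0.045). Chchd10 and Mt1, a metallothionein, differed by -3.82 and -2.81 (edgeR adjusted p = 0.0062 and 0.011), and both were mostly shallow-cell transcripts among the gated cells. Lyz2, a gate gene, differed by 1.04 (edgeR adjusted p = 0.015), given without weight because the rule used it. Because the gated cells held different proportions of shallow and deep cells in EV and Control, their mixture and a change within a kind of cell cannot be told apart in this test. For Fth1 the log2 fold changes within the kinds were 0.91 in the shallow Lyz1 clusters and 1.12 in the monocyte-like clusters (edgeR adjusted p = 0.0042 and 0.23), both in the direction of the macrophages. Against dendritic cells with a Flt3 UMI (6 and 7 Control and 13 and 17 EV cells), edgeR called 0 of 3033 genes (0%), with 219 at an unadjusted p under 0.05. Ifitm3, whose level in the gated cells was part of the rule, had the smallest p there and is given without weight, with 60 and 160 UMIs in the gated Control cells and 1754 and 580 in the gated EV cells, and 4 and 2 against 220 and 187 UMIs in the dendritic cells (difference -3.03 ± 0.55, edgeR adjusted p = 0.14). It was followed by the chemokine Ccl5, Gm42418 and the ferritin chains Fth1 and Ftl1 (differences -5.09, 1.52, -1.26 and -1.46, edgeR adjusted p of 0.14 to 0.16).

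The gate itself decided which cells were seen. Before the conditions on other lineages, 137 and 222 Control cells and 299 and 253 EV cells had at least 4 UMIs of the gate genes, and 83.9%, 79.7%, 71.6% and 78.3% of them had a UMI of a lineage gene. C1q UMIs were the most frequent reason in all 4 libraries, in 58 and 106 Control cells and 110 and 91 EV cells. Just below the threshold, 5, 3, 2 and 5 cells that met the other conditions had 3 UMIs of the gate genes, and just inside it 4, 1, 1 and 4 cells had 4 UMIs. The same sum of at least 4 UMIs was reached in 0.695%, 0.868%, 0.844% and 1.15% of T cells and in 0.703%, 1.14%, 1.19% and 1.11% of B cells of the 4 libraries. Of the gate genes, Ifitm3 had a UMI in 0.633% and 0.928% of the Control B cells and 3.55% and 3.25% of the EV B cells, and in 0.403% and 0.521% of the Control T cells and 1.04% and 1.5% of the EV T cells, so that it was more frequent in EV outside the gate too. With Lyz2 alone required to reach 4 UMIs, a setting chosen after seeing the data, 19 and 42 Control cells (0.233% and 0.532%) and 69 and 53 EV cells (0.845% and 0.621%) were left, and of the monocyte-like cells 4 and 6 in Control and 28 and 18 in EV. Ms4a6c had a UMI in 19.1% to 23.6% of T cells (median 6446 to 8756 UMIs a cell).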

How the data were processed

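Draining lymph node cells were measured by 10x 3′ single-cell RNA sequencing, 1 library per replicate. The authors deposited UMI counts per gene and barcode, without normalization; per the labels they were made with Cell Ranger 7.1.0 on mm10, and the annotation release and the use of intronic reads are not given in the sources used here. Cells were filtered and gated as described, raw counts were summed per library, and EV was compared with Control by edgeR 4.0.16 (TMM, filterByExpr, quasi-likelihood test, two-sided, Benjamini-Hochberg over all genes tested), with DESeq2 1.42.0 as an alternative. Gated cells were clustered with Louvain (igraph 0.11.9, 1000 variable genes, 15 components, 15 neighbours, resolution 1). A cluster was said to carry a marker when at least 10% of its cells had the transcript, at 1.5 times or more the level of the other filtered cells. No doublets were removed; Scrublet marked 3.76%, 2.99%, 1.58% and 3.22% of cells, 1 of them gated. Shares were compared by an exact permutation test. Fits on single kinds of clusters were chosen after seeing the data. The members and lists were chosen with earlier results of these data known. Mx1, Mx2 and Clec7a were not analysed here. Named genes were the gate genes and markers, the most abundant members of each list, called genes, otherwise the 5 of smallest p in each direction, the leading genes, Cdk8, Cdk19 and the 5 smallest p of each interaction; Prg3 to Apoe in the shallow cells, Nr4a1, Ace, Isg15, Irf7 and others outside this rule were named after their values were seen. p-values measure only the spread between these libraries. Scripts were tested on simulated data.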

Additional observations from a re-analysis of the deposited data

Results flagged for a closer look

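The EV effects differed between the Lyz2-gated cells and the C1q macrophages for 5 genes by the interaction test (edgeR, library as a block). The differences on the log2 scale were -3.82 for Chchd10, -2.81 for Mt1, 1.04 for Lyz2, -1.06 for Fth1 and 1.44 for Psap. Lyz2 is a gate gene, so its value was drawn from what the rule used. The gated cells mix shallow and deep kinds in proportions that differed between EV and Control, and the mixture and a change within a kind cannot be told apart. Within the kinds, Fth1 had log2 fold changes of 0.91 (shallow Lyz1) and 1.12 (monocyte-like), whereas over all gated cells it was at 10892 and 11980 CPM in Control versus 9680 and 10299 CPM in EV. Without Control replicate 2 or without EV replicate 1 the number of called genes was 0.

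Cells that the gate left out carried monocyte markers as well. Cells with at least 4 UMIs of the gate genes, a UMI of a lineage gene and at least 3 of the 11 further monocyte markers were 0.135% and 0.177% of the filtered Control cells (11 and 14 cells) and 0.502% and 0.446% of the filtered EV cells (41 and 38 cells). The mean share was 3.03-fold higher in EV (exact permutation p = 0.33, the smallest that this test allows here). Whether these barcodes are monocytes that took up other RNA, doublets or other cells was not tested. Groups of 2 libraries allow no test for outlying samples.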

How the results depend on the processing

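Depth and cell number set the limits: 4 and 6 monocyte-like Control cells, and sums of 53524 to 534829 UMIs. The EV excess of the gated share, 0.423 percentage points, lay between 0.279 and 0.543 with other gates, cell filters, doublets removed, cells with neutrophil transcripts removed or thinning, and was 10.1 as a share of cells without Cd3 and Cd79a UMIs, where the denominator is smaller. Leaving out each library gave 0.225 to 0.621. The Ly6c2-high excess, 17.8 percentage points of gated cells, was 8.70 after thinning to 1000 UMIs (0%, 2.86%, 10.3% and 10.0% in the 4 libraries), 14.4 to 22.4 otherwise and 11.9 to 23.7 without a library.

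Counts of called genes depended on the setting and the causes were not tested. For all gated cells (0) they were 25 with DESeq2, 1 with library sizes without ribosomal and technical genes, 112 without filterByExpr, 123 of 629 after thinning, 17 without neutrophil transcripts, 1 with a gate of 8 UMIs, and 0 to 40 without a library (0 without either Control library, 16 without EV 1, 40 without EV 2). For Ly6c2-low cells (0) they were 4 with DESeq2, 77 without filterByExpr and 8 to 190 without a library. For the shallow Lyz1 clusters (5) they were 0 with DESeq2, 12 without filterByExpr and 0 to 17 without a library. For the monocyte-like clusters (0) they were 34 without filterByExpr and 7 to 72 without a library. For the interaction with C1q macrophages (5) they were 12 without filterByExpr and 0 to 14 without a library, and with dendritic cells (0) 7 and 1 to 46. With 1 library left in a group, it is assumed to vary like the others.

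The replicate block was checked once. Deviations of same-numbered libraries correlated at r = 0.13 over 3493 genes with 2 pairs, and the labels tie the numbers to nothing, so the libraries share only a number. With the block, 18 genes were called in all gated cells, 13 in the shallow Lyz1 clusters, and 0 in the Ly6c2-low and the monocyte-like cells. Of 45 fold changes of named genes, all kept their direction except Cdk19 (-0.65 to 0.88 without a library in all gated cells, among them -0.12 without EV replicate 2, 0.15 without filterByExpr in the monocyte-like clusters), while 101 values under alternatives passed the threshold that the reported value missed and 35 did the reverse. The fit of Ly6c2-high cells, for which at least 20 cells in every library had been asked, was not run. That limit was not applied to the fits of the monocyte-like clusters (4 to 31 cells a library), the shallow Lyz1 clusters (16 to 39) and the dendritic cells (6 to 17).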
